A study of Macaca radiata with 6 samples.

Results

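The antioxidant and glutathione enzymes of the corpus luteum (CL) were followed here on 6 arrays, 3 from CL of bonnet monkeys given Cetrorelix (CET) and 3 from CL of monkeys given vehicle (VEH). CET blocks the GnRH receptor and so cuts off LH, and was injected once at 150 μg/kg BW on day 7 of the luteal phase, and the VEH injection was 5.25% glucose. All CL were removed from female monkeys 24 h after injection, and their RNA was hybridized to arrays whose probes were designed for the rhesus monkey. The design text states that CL of both treatments came from the same monkeys, but the titles do not tie a CET sample to a VEH sample, and no animal term was fitted. Genes were taken by symbol: the GPX, PRDX, GST, MGST, SOD, TXN and GLRX families with CAT, GSR, GCLC, GCLM, GSS, HMOX1, HMOX2 and NQO1. Where several probe sets carried a symbol alone, the brightest stood for the gene. The symbols gave 43 of the 14132 genes read on the array. Of the genes to be described whatever their values, SOD3, GPX1, GPX3, PRDX1, TXN, TXNRD1, GSS, GSR, HMOX1 and NQO1 had no probe set with a single symbol of that name in the annotation used and were not analysed here.

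Steroidogenic cells of the CL take up much oxygen, and their mitochondrial cytochromes P450 leak electrons while they shorten and hydroxylate cholesterol. Superoxide dismutases turn the resulting superoxide into hydrogen peroxide, which catalase, glutathione peroxidases and peroxiredoxins reduce. The peroxidases draw their electrons from glutathione or thioredoxin, both recharged by NADPH, while glutathione transferases attach glutathione to lipid peroxidation products and other electrophiles. In the CL of several mammals these enzymes are high while progesterone is made and are a long-standing subject in studies of luteal regression.

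Most of these enzymes had a lower mean after CET. Of 43 genes 35 (81.4%) had a lower mean, where 54.6% of all genes did, and the median log2 fold change was -0.62, against -0.08 over all genes. At 1.5-fold between group means, 24 members (55.8%) were lower and 0 higher, while 23.9% of all genes were lower and 18.7% higher. The members with the smallest unadjusted p were the heme oxygenase HMOX2, the glutathione transferases GSTA1, GSTA4 and GSTA3, and the peroxiredoxin PRDX6. None passed an adjusted p of 0.05 in limma, nor did any gene (0% of 14132), and the smallest adjusted p of a member was 0.83. At an unadjusted p under 0.05 there were 5 members (11.6%), all lower, where 3.01% of all genes were lower and 2.02% higher at this limit. All CET arrays lay below all VEH arrays for 9 members (20.9%) and for 6.45% of all genes, and above them for 1 member and 5.09% of all genes. With 3 against 3 samples an exact permutation test cannot go below p = 0.1. Precision is limited by the small number of arrays, and the replicate SD of a member had a median of 0.72 on the log2 scale and reached 1.82.

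Among these counts, 39 members had a mean log2 signal above the limit for dim probe sets (7.43, the 40th percentile of all probe sets), and PRDX6, CAT, GLRX and GPX2 had a mean below it. Over the 39 brighter members 31 were lower (79.5%), where 57.7% of the genes above that limit were. TXNL4A and TXNL4B carry the thioredoxin-like name but belong to the splicing machinery, and without them 35 of 41 members were lower. Without normalization between arrays 27 members were at least 1.5-fold lower and 1 higher. With array medians subtracted, which moved the median of all genes from -0.08 to -0.20, the counts were 34 and 0. Under cyclic loess they were 17 and 2. Over all genes the 1.5-fold criterion gave 3382 lower and 2639 higher, and 3063 (21.7%) lower and 3384 higher on the signals as deposited. It gave 4355 (30.8%) lower and 2402 higher with array medians subtracted, and 3178 (22.5%) lower and 2652 higher under cyclic loess.

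**Figure D1:**
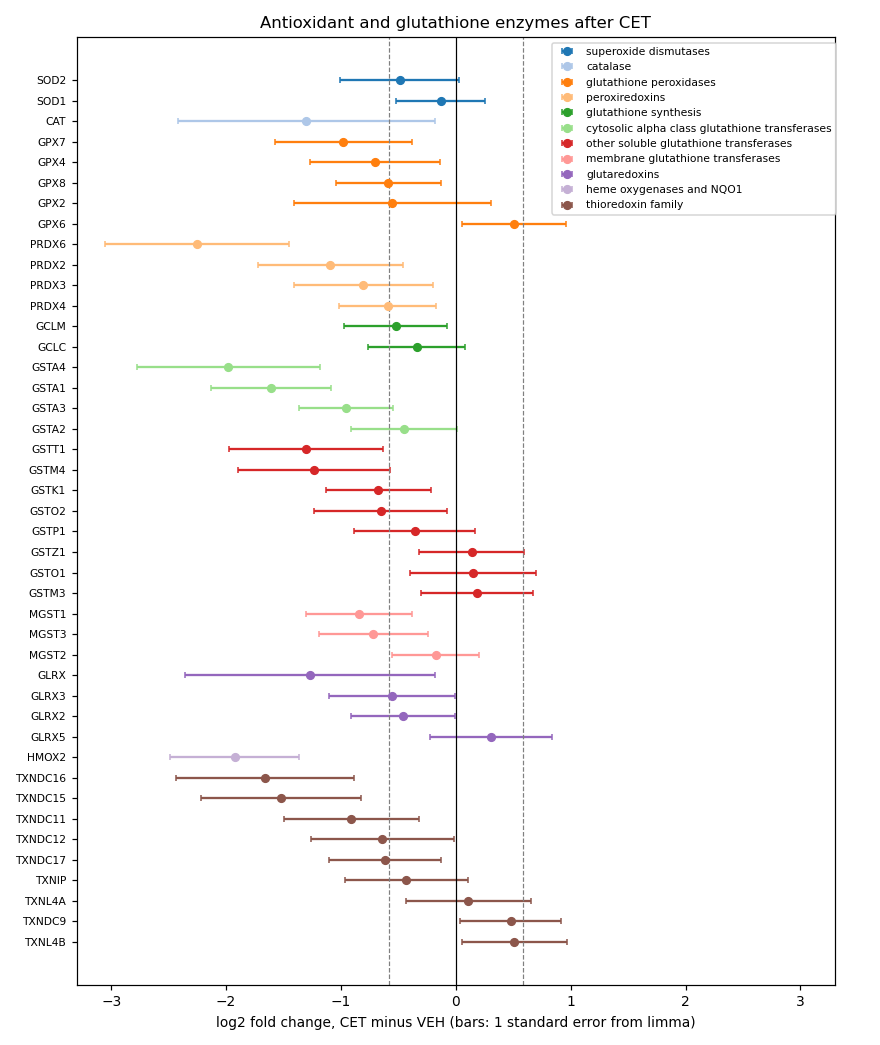
Log2 fold change (CET minus VEH) of the 43 members, grouped by enzyme class, with bars of 1 standard error in limma and dashed lines at 1.5-fold. Points left of 0 are lower after CET, which holds for 35 members, and 24 of them lie at or beyond the left dashed line.

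The CET arrays did not share this shift equally. Against the mean of the VEH arrays, the median over the 43 members was -0.12 on CET replicate 1, -0.97 on CET replicate 2 and -0.69 on CET replicate 3. It was 0.10, -0.02 and -0.06 on VEH replicates 4, 5 and 6. All 3 CET arrays thus had a lower member median than every VEH array, CET replicate 1 by little. The VEH arrays are part of the mean they are set against, which holds their medians near 0. The small gap of CET replicate 1 therefore does not set that array apart from them. Over all genes the same medians stayed between -0.16 and 0.04. Of the 43 members, 16 lay below their lowest VEH value on CET replicate 1, 27 on CET replicate 2 and 30 on CET replicate 3. The share of all genes was not counted array by array, so these counts have no background beside them. Without CET replicate 2 the median log2 fold change was -0.38 and 17 members were at least 1.5-fold lower, and without CET replicate 1 the values were -0.87 and 26. Of all genes, 23.5% were at least 1.5-fold lower without CET replicate 2 and 31% without CET replicate 1. The number of members at an unadjusted p under 0.05 was 14 lower and 1 higher without CET replicate 1, where 10.1% of all genes were lower at that limit. It was 2 lower without either VEH replicate 4 or VEH replicate 6, where 2.43% and 1.65% of all genes were.

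The 3' to 5' signal of control genes and the levels of cell type markers also differed between these arrays. For GAPDH control probe sets the 3' signal was 142.9 times the 5' signal on CET replicate 2, against ratios of 1.79 to 7.31 elsewhere. With the mean log2 ratio of 3 such controls as a covariate, 37 members were lower, 19 of them at least 1.5-fold. Of all genes, 57% were then lower and 24.7% at least 1.5-fold lower. The median over all members was -0.49 in this fit. Markers of luteal steroidogenic cells had a probe set for 9 of 13 listed genes, all 9 above the limit for dim probe sets, and 8 of them had a lower mean after CET. Their summed normalized signal was 109380, 42669 and 53345 on CET replicates 1, 2 and 3 and 96320 to 132360 on the VEH arrays. CET replicates 2 and 3, the arrays on which the antioxidant genes were furthest down, were thus also lowest in this sum. STAR, which brings cholesterol into mitochondria, had a log2 signal of 14.86, 12.74 and 13.66 after CET and 15.27, 15.44 and 14.89 after VEH. It was the 1 marker of the 9 in which the groups did not overlap. HSD3B2 and CYP17A1 overlapped, with log2 fold changes of -0.50 (SE 0.43) and -0.56 (SE 0.85), and INHBA was higher at 0.24. Over all genes 54.6% had a lower mean, against 88.9% of the steroidogenic markers. The shares of pericyte (60%) and leukocyte (66.7%) markers lay nearer to it. Markers of endothelial cells were lower in 9 of 11 genes, of pericytes in 3 of 5, of macrophages and other leukocytes in 6 of 9, and of epithelium in 7 of 9. Their summed signals after CET and VEH overlapped for endothelial cells (16039 to 27055 and 17340 to 24125), leukocytes (8286 to 12590 and 6327 to 12441) and epithelium (1006 to 2471 and 2390 to 3110), but not for pericytes (4765 to 5373 and 5401 to 6684). In whole CL, fewer cells of a type and less RNA per cell cannot be told apart, and the part of these differences in the values below was not tested.

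**Figure D2:**
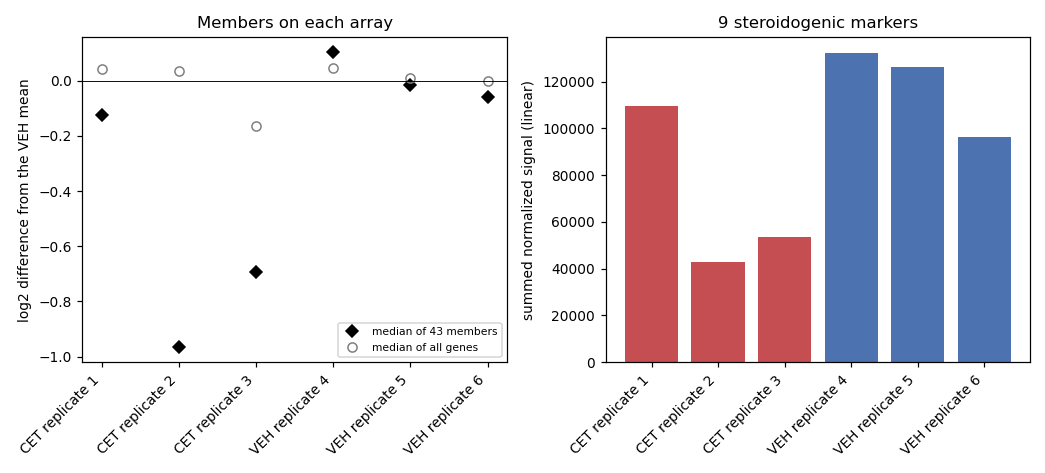
Left, median log2 difference from the VEH mean on each array, for the 43 members (diamonds) and for all 14132 genes (open circles). Right, summed normalized linear signal of 9 steroidogenic cell markers on each array (CET red, VEH blue). CET replicates 2 and 3 are lowest in both panels, and CET replicate 1 lies at -0.12 in the left panel and within the VEH range in the right.

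Superoxide dismutases, the first step, overlapped between the groups. SOD1, the cytosolic copper and zinc enzyme, had a log2 signal of 12.63, 12.88 and 12.27 after CET and 12.71, 13.02 and 12.46 after VEH. The values interleaved, and the log2 fold change was -0.13 (standard error of the difference, SE, 0.39, limma adjusted p = 0.96), with a sign that turned to 0.0095 under cyclic loess. SOD2, the manganese enzyme of mitochondria, had 8.83, 9.22 and 9.20 after CET and 8.86, 10.37 and 9.48 after VEH. Its log2 fold change of -0.49 (SE 0.52, adjusted p = 0.88) was -0.09 without VEH replicate 5, the array with the highest value, and its other probe set gave -0.61.

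Catalase, the peroxisomal enzyme that splits hydrogen peroxide, could hardly be followed. CAT had a log2 signal of 4.61, 5.45 and 8.76 after CET and 6.10, 7.92 and 8.70 after VEH, so that each group spanned the dim limit. The log2 fold change was -1.30 (SE 1.12, limma adjusted p = 0.86) and ranged from -2.54 to -0.47 when single arrays were left out.

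All 4 peroxiredoxins had a lower mean after CET, each by at least 1.5-fold, where 23.9% of all genes were that much lower. Their median was -0.95, and -0.48 without CET replicate 2. These enzymes reduce peroxides with a reactive cysteine. PRDX6, which also repairs oxidized phospholipids, had a log2 signal of 5.31, 6.62 and 5.03 after CET and 8.47, 7.18 and 8.07 after VEH. Every CET value lay below every VEH value, and all 3 CET values, with VEH replicate 5, lay under the limit for dim probe sets. The log2 fold change was -2.26 (SE 0.80, limma adjusted p = 0.83, unadjusted p = 0.016), or 4.77-fold lower, and -1.58 to -2.77 over the alternatives that kept all arrays. PRDX2, a cytosolic enzyme abundant in red cells, had 11.71, 9.27 and 9.42 after CET and 11.75, 11.17 and 10.75 after VEH, where CET replicate 1 overlapped VEH and the others did not. Its log2 fold change was -1.09 (SE 0.63), from -1.88 without CET replicate 1 to -0.66 without CET replicate 2, and its other 2 probe sets gave -0.16 and -0.84. Beside it, 4 of 5 red cell markers had a higher mean after CET, as did 6413 of all 14132 genes. ALAS2, the erythroid enzyme of heme synthesis, had a log2 fold change of 1.05 (SE 0.48), and HBB, beta globin, had -0.02 with a sign that turned under cyclic loess (0.05) and array weights (0.20). The summed signal of the 5 erythroid markers with a probe set was 2879 to 5871 after CET and 2777 to 3627 after VEH.

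PRDX3, the mitochondrial peroxiredoxin, had a log2 signal of 12.90, 10.63 and 13.25 after CET and 12.95, 13.22 and 13.02 after VEH. A single array, CET replicate 2, lay below the others, and without it the log2 fold change of -0.80 became 0.01. The 3 other probe sets of PRDX3 gave -0.84, -0.07 and -0.84, the last of them dim. PRDX4, which works in the endoplasmic reticulum, had a log2 fold change of -0.59 (SE 0.42), at the limit of 1.5-fold, which was -0.30 without CET replicate 2.

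Of 5 glutathione peroxidases 4 had a lower mean, where 54.6% of all genes did. GPX4, the selenoenzyme that reduces lipid hydroperoxides within membranes, had a log2 signal of 13.55, 12.81 and 11.44 after CET and 14.05, 13.13 and 12.71 after VEH. The groups overlapped, with a log2 fold change of -0.70 (SE 0.56, limma adjusted p = 0.85) that was -0.12 without CET replicate 3, the array with the lowest value. Both other probe sets of GPX4 had a lower mean too, at -1.78 and -0.51, in each with a single CET array far below the rest. At the first, CET replicate 2 lay at 7.36, and the other CET arrays at 12.42 and 11.76, against 11.95 to 12.48 after VEH. At the second, CET replicate 3 lay at 10.48, and the other CET arrays at 13.12 and 12.90, against 12.01 to 13.39 after VEH. GPX7 and GPX8, peroxidases of the endoplasmic reticulum, had log2 fold changes of -0.98 (SE 0.60) and -0.59 (SE 0.46). Without VEH replicate 4 the value for GPX7 was -0.57, and without CET replicate 2 that for GPX8 was -0.24. The other probe set of GPX8 gave -0.10 (SE 0.53). GPX2, known from the gut, had a mean under the dim limit and a log2 fold change of -0.55 (SE 0.86), which was 0.24 without CET replicate 1. GPX6 was the 1 peroxidase with a higher mean, at a log2 signal of 10.44, 11.12 and 10.35 after CET and 9.87, 9.84 and 10.68 after VEH. The overlap was wide and the log2 fold change was 0.51 (SE 0.45, adjusted p = 0.86).

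**Figure D3:**
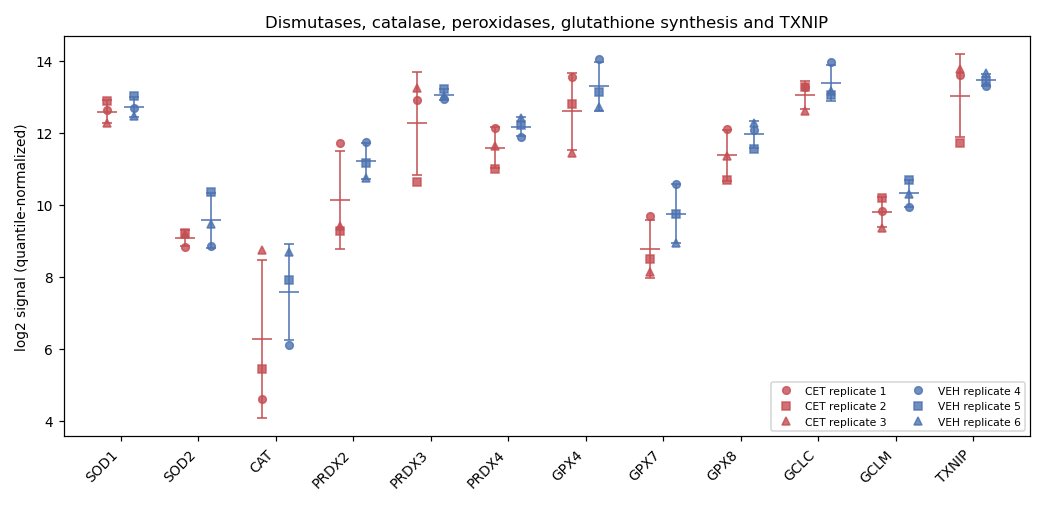
Log2 signal on each array for dismutases, catalase, peroxidases, glutathione synthesis and TXNIP, with group means as horizontal marks and bars of 1 SD over 3 arrays. For SOD1 the groups interleave, for CAT each spans several log2 units, and for PRDX3 and TXNIP only CET replicate 2 lies apart from the other arrays.

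Glutathione synthesis was represented by both subunits of glutamate cysteine ligase, its first and rate-limiting enzyme. GCLC, the catalytic subunit, had a log2 signal of 13.27, 13.27 and 12.61 after CET and 13.97, 13.05 and 13.15 after VEH at its brightest probe set. This is a log2 fold change of -0.34 (SE 0.42, limma adjusted p = 0.90), which was -0.05 without VEH replicate 4. At its 4 other probe sets the log2 fold change was -1.13, -1.29, -1.74 and -1.99, and the mean over all 5 was -1.30. CET replicate 2 had the lowest value at each of these 4. At the probe set with -1.99 it lay at 3.83, and the other CET arrays at 9.18 and 9.34, against 8.31 to 10.05 after VEH. At the probe set with -1.13 the other CET arrays (11.60 and 11.71) also lay below every VEH array. The direction was thus the same at all 5 probe sets, while the size differed between them. GCLM, the modifier subunit, had 9.84, 10.19 and 9.36 after CET and 9.94, 10.70 and 10.31 after VEH, a log2 fold change of -0.52 (SE 0.45, adjusted p = 0.86) that was -0.30 without CET replicate 3.

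Alpha class glutathione transferases had a lower mean in 4 of 4 genes, where 54.6% of all genes did. Their median was -1.28, and -0.77 without CET replicate 2. Background knowledge ties this class to steroidogenic tissue, since GSTA3 also catalyses the isomerization of steroid precursors on the way to progesterone. GSTA1 had a log2 signal of 10.23, 9.57 and 9.04 after CET and 12.17, 10.78 and 10.71 after VEH. No value overlapped, and the log2 fold change was -1.61 (SE 0.52, limma adjusted p = 0.83, unadjusted p = 0.010), or 3.05-fold lower, with -1.13 to -1.92 when single arrays were left out. GSTA3 had 13.21, 12.15 and 12.72 after CET and 13.52, 13.86 and 13.57 after VEH, again without overlap. Its log2 fold change was -0.95 (SE 0.41, unadjusted p = 0.0395), and its other probe set gave -0.60. GSTA4, which conjugates the lipid aldehyde hydroxynonenal, had 10.92, 7.02 and 9.88 after CET and 11.27, 11.04 and 11.46 after VEH. Here the VEH arrays lay close together, whereas CET replicate 2 lay far below all others, and the log2 fold change of -1.98 (SE 0.80, unadjusted p = 0.030) became -0.85 without that array. GSTA2 overlapped between groups, with a log2 fold change of -0.45 (SE 0.46) at the brightest probe set, or -0.14 without CET replicate 2, and -0.32 at the other. GSTA1, GSTA2 and GSTA3 are close relatives in sequence, and the brightest probe sets of GSTA1 and GSTA3 carry the array's suffixes for probes shared with other transcripts, so their signals may mix. The other probe set of GSTA1, also of the shared kind, gave -0.53 (SE 0.59).

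**Figure D4:**
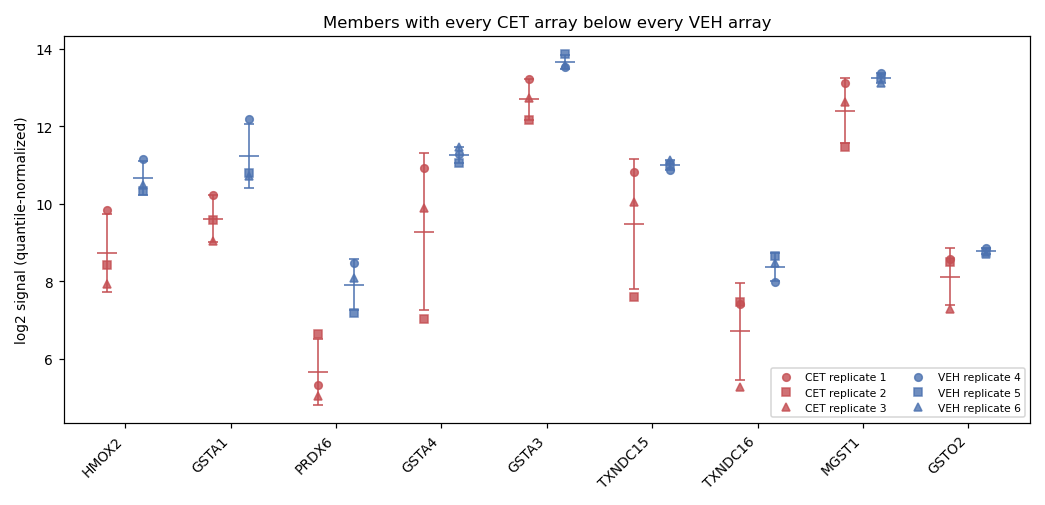
Log2 signal on each array for the 9 members in which every CET array (red) lay below every VEH array (blue), ordered by unadjusted p. A horizontal mark gives each group's mean, with its SD over 3 arrays as a bar. VEH points lie close together for GSTA4, TXNDC15, MGST1 and GSTO2, and CET points are spread more widely there.

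The other soluble glutathione transferases were split, with 5 of 8 lower (62.5%), near the 54.6% of all genes. GSTT1, a theta class enzyme, had a log2 signal of 11.36, 9.33 and 8.64 after CET and 11.85, 11 and 10.39 after VEH. CET replicate 1 lay among the VEH arrays and the other CET arrays below them, at a log2 fold change of -1.30 (SE 0.67) that ranged from -2.09, leaving out CET replicate 1, to -0.74, leaving out CET replicate 3. GSTM4 had -1.23 (SE 0.66), GSTK1, found in mitochondria and peroxisomes, -0.67 (SE 0.45), and GSTO2, which reduces dehydroascorbate, -0.65 (SE 0.58). Leaving out the array that brought each nearest to 0 gave -0.80 for GSTM4 (CET replicate 1), -0.35 for GSTK1 and -0.24 for GSTO2 (both CET replicate 3). GSTO2 did not overlap between groups, since the VEH arrays lay between 8.70 and 8.86 and the highest CET array at 8.57. GSTP1, the pi class enzyme, had 13.72, 12.54 and 12.35 after CET and 14.14, 13.08 and 12.47 after VEH, a log2 fold change of -0.36 (SE 0.53, limma adjusted p = 0.91) that was 0.10 without VEH replicate 4. GSTM3, GSTO1 and GSTZ1 had log2 fold changes of 0.19, 0.15 and 0.14, which turned to -0.29, -0.22 and -0.20 with array medians subtracted.

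Membrane glutathione transferases, small enzymes of the endoplasmic reticulum and mitochondrial membranes, were lower in 3 of 3 genes, where 54.6% of all genes were. MGST1 had a log2 signal of 13.10, 11.46 and 12.63 after CET and 13.38, 13.24 and 13.11 after VEH. The highest CET value and the lowest VEH value nearly touched, and the log2 fold change was -0.84 (SE 0.46, limma adjusted p = 0.83), with -0.93 at its other probe set and -0.38 without CET replicate 2. At that other probe set CET replicate 2 lay at 8.17, and the other CET arrays at 11.42 and 12.29, against 11.33 to 11.84 after VEH. MGST3 had -0.72 (SE 0.48) at its brightest probe set, or -0.41 without CET replicate 3, and -1.11 and -2.87 at the others. MGST2, which can make a cysteinyl leukotriene, had -0.17 (SE 0.38), or -0.05 without VEH replicate 4. Over soluble and membrane enzymes together, 12 of 15 transferases were lower (80%), with a median of -0.67.

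HMOX2, the constitutive heme oxygenase, which opens heme to biliverdin and carbon monoxide, had the smallest p of all members. Its log2 signal was 9.84, 8.41 and 7.93 after CET and 11.14, 10.33 and 10.48 after VEH, or 8.73 ± 1.0 (SD, n = 3) and 10.65 ± 0.43 (SD, n = 3). No value overlapped, and the log2 fold change was -1.93 (SE 0.56, limma adjusted p = 0.83, unadjusted p = 0.0054), or 3.80-fold lower. It stayed between -2.48 and -1.53 when single arrays were left out, and its other 2 probe sets gave -1.38 and -1.13. All 3 probe sets of HMOX2 thus gave a lower mean after CET. At the brightest the groups did not overlap, so leaving out an array could not turn the sign. At the probe set with -1.38, CET replicate 1 (10.67) lay above every VEH array (highest 10.39), and CET replicate 3 lay at 6.11. At the probe set with -1.13 the highest CET value (8.73) and the lowest VEH value (8.74) nearly touched.

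Thioredoxin family members, outside thioredoxin and its reductases, were lower in 6 of 9 genes (66.7%), where 54.6% of all genes were. Their median was -0.62, and -0.14 without CET replicate 2. TXNIP, which binds thioredoxin and blocks it, had a log2 signal of 13.62, 11.72 and 13.77 after CET and 13.31, 13.45 and 13.65 after VEH. As with PRDX3, CET replicate 2 alone lay low, and the log2 fold change of -0.43 (SE 0.54, limma adjusted p = 0.90) became 0.23 without that array. Its 4 other probe sets were divided, at -1.20, 0.12, 0.31 and 0.54. TXNDC15 had 10.80, 7.59 and 10.04 after CET and 10.87, 11 and 11.13 after VEH, and TXNDC16 had 7.40, 7.46 and 5.25 after CET and 7.97, 8.65 and 8.47 after VEH. Neither overlapped between groups, but in each a single CET array lay far below the rest. The log2 fold change of TXNDC15 was -1.52 (SE 0.70), or -0.58 without CET replicate 2. That of TXNDC16 was -1.66 (SE 0.77), or -0.93 without CET replicate 3, and its CET mean of 6.70 lay under the dim limit.

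TXNDC11, TXNDC12 and TXNDC17 were lower at -0.91, -0.64 and -0.62, and TXNDC17 was 0.29 as the mean over its probe sets. Without CET replicate 2 TXNDC11 was -0.36 and TXNDC12 was -0.03, and without CET replicate 3 TXNDC17 was -0.15. TXNDC9, a partner of the chaperonin that folds actin and tubulin, had 12.13, 13.46 and 13.29 after CET and 12.33, 12.54 and 12.58 after VEH at its brightest probe set. The log2 fold change there was 0.48 (SE 0.44), but its 3 other probe sets gave -0.48, -0.58 and -1.0, and it was -0.19 with array medians subtracted. TXNL4B was the 1 member with every CET array above every VEH array, at a log2 fold change of 0.51 (SE 0.46, limma adjusted p = 0.86), while its other probe set gave 0.34. TXNL4A had 0.11 (SE 0.54), and -0.04 with array medians subtracted.

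Glutaredoxins, which use glutathione to reduce protein disulfides or carry iron-sulfur clusters, were lower in 3 of 4 genes (75%) with wide overlap. Of all genes 54.6% were lower. GLRX, GLRX2 and GLRX3 had log2 fold changes of -1.27 (SE 1.09), -0.46 (SE 0.46) and -0.56 (SE 0.55). Leaving out 1 array brought them to -0.30 for GLRX (VEH replicate 5), and to -0.21 for GLRX2 and -0.18 for GLRX3 (both CET replicate 2). GLRX5, of the mitochondrial iron-sulfur pathway, had 0.31 (SE 0.53), which was 0.03 without CET replicate 2 and turned to -0.11 with the 3'/5' control ratio as a term in the fit.

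Genes that feed or surround these enzymes were counted from listed pathways, to be read beside the 54.6% of all genes with a lower mean. NADPH suppliers were lower in 7 of 9 genes (77.8%), with a median of -0.49 that was -0.28 without CET replicate 2. IDH1, cytosolic isocitrate dehydrogenase, had a log2 signal of 12.73, 10.90 and 11.70 after CET and 13.03, 13.35 and 12.74 after VEH. The groups nearly touched, with a log2 fold change of -1.27 (SE 0.49, limma adjusted p = 0.83, unadjusted p = 0.024), which was -0.83 without CET replicate 2. NADK, the kinase that makes NADP, had 0.04 (SE 0.53), and -0.02 with array medians subtracted. Genes of cystine uptake and glutathione turnover were lower in 9 of 11 (81.8%), with a median of -0.22 that ran from -0.54, leaving out CET replicate 1, to -0.10, leaving out CET replicate 2. DPEP1, a membrane dipeptidase that splits the glutathione breakdown product cysteinylglycine, had -0.97 (SE 0.40, unadjusted p = 0.033), or -0.28 as the mean over its probe sets, and GGT7, of the glutamyl transferase family, 1.05 (SE 0.44, unadjusted p = 0.037). Neither overlapped between groups, and the directions were opposite.

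Regulators and other targets of NFE2L2, the transcription factor that drives many antioxidant genes, were lower in 15 of 18 genes (83.3%) with a median of -0.35. BLVRB, which reduces biliverdin, had a log2 signal of 8.29, 6.63 and 5.70 after CET and 9.61, 9.09 and 8.09 after VEH. Its log2 fold change was -2.05 (SE 0.78, limma unadjusted p = 0.023), with CET replicate 1 overlapping VEH. The CET mean of BLVRB, 6.88, lay under the dim limit. MAFK, a small MAF protein that pairs with NFE2L2, had 7.86, 7.59 and 8.16 after CET and 5.38, 6.06 and 6.54 after VEH. It was higher on every CET array, by a log2 fold change of 1.88 (SE 0.73, unadjusted p = 0.026), from VEH values under the dim limit. Oxidant producing enzymes were lower in 12 of 21 (57.1%), near the share of all genes, with a median of -0.08, as over all genes, and of 0.19 on the signals as deposited. XDH, xanthine dehydrogenase, had 0.98 (SE 0.51) with all CET arrays above VEH, and FDX1, the ferredoxin of mitochondrial steroid hydroxylases, -1.50 (SE 0.88), which was -0.16 without CET replicate 2.

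Selenoprotein genes were lower in 11 of 19 (57.9%), near the share of all genes, with a median of -0.31 that was -0.09 with the 3'/5' control ratio as a term in the fit. SEPHS2, the selenophosphate synthetase, had a log2 signal of 4.12, 4.24 and 3.89 after CET and 8.51, 7.02 and 7.08 after VEH. The CET values were low and close together, for a log2 fold change of -3.45 (SE 0.82, limma adjusted p = 0.83, unadjusted p = 0.0013), which was -1.35 with signals floored at the 20th percentile. DIO2, a deiodinase, had 2.74 (SE 0.86, unadjusted p = 0.0082) at a dim probe set, and -0.12 as the mean over its probe sets. Among other protective genes 12 of 19 were lower (63.2%), with a median of -0.26 that was -0.04 without VEH replicate 4, and the metallothioneins, small metal-binding proteins, diverged. MT2A had 12.70, 11.58 and 12.65 after CET and 13.95, 14.22 and 14.03 after VEH, without overlap, at a log2 fold change of -1.75 (SE 0.43, adjusted p = 0.83, unadjusted p = 0.0016). MT1X had 11.14, 13.01 and 12.59 after CET and 11.29, 10.40 and 11.06 after VEH, at 1.33 (SE 0.52, unadjusted p = 0.026), and 0.36 as the mean over its probe sets. None of the genes on these lists passed an adjusted p of 0.05. At an unadjusted p under 0.05 in limma, 3.01% of all genes were lower and 2.02% higher. There were 1 lower and 0 higher among 9 NADPH suppliers, and 2 and 1 among 11 genes of cystine uptake and glutathione turnover. Around NFE2L2 there were 2 and 1 among 18 genes, and 0 and 0 among 21 oxidant producers. Selenoprotein genes had 1 and 1 among 19, and the other protective genes 3 and 1 among 19.

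Across 17 alternatives in the processing, 31 of the 43 members kept the sign of their log2 fold change, 29 of them lower and 2 higher, GPX6 and TXNL4B. The median over the members was below that over all genes in every one of the alternatives. The fit without the trend, the methods' t-test and the fit without dim probe sets kept the same group means. No sign could turn in these, and the first 2 also repeat both medians. It was nearest to 0 at -0.38, without CET replicate 2, and furthest at -0.96, with array medians subtracted. No member passed an adjusted p of 0.05 under any alternative, the smallest being 0.23 for HMOX2, without CET replicate 1.

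**Figure D5:**
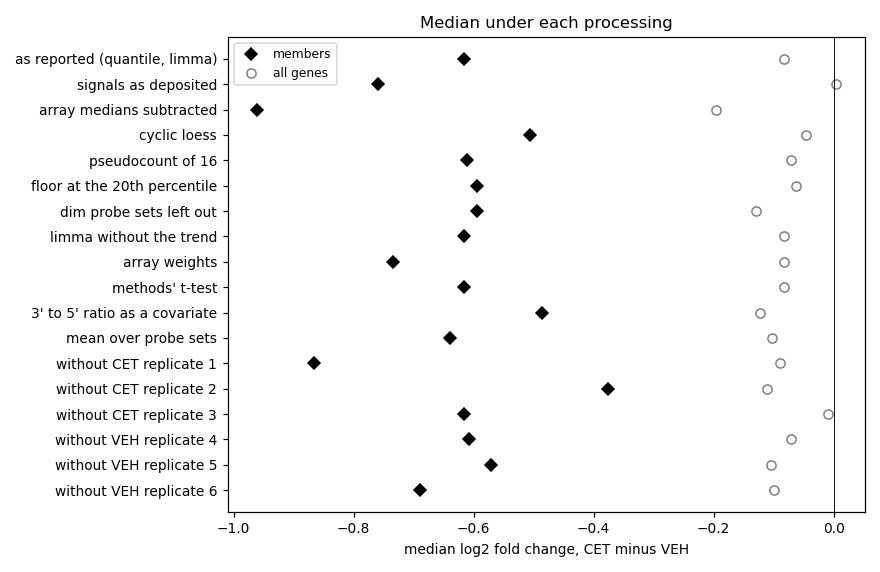
Median log2 fold change (CET minus VEH) of the 43 members (diamonds) and of all genes (open circles) as reported and under 17 alternatives, named on the vertical axis. The member median lies left of that of all genes in each, from -0.96 to -0.38. Without the trend and by the methods' t-test both medians are by construction those as reported.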

How the data were processed

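RNA of 6 CL, 3 CET and 3 VEH, was hybridized to Affymetrix rhesus GeneChips. The deposited values are MAS5 signal intensities, scaled by the authors to a trimmed mean of 500 on every array. The MAS5 version is not given in the sources used here. The arrays with LH replacement were not analysed here. Groups were taken from the sample titles and source names, and since no label names the animal of a CL, p-values measure only the spread between these samples.

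Of 52865 probe sets, 158 controls were left out. Signals were floored at 1, put on the log2 scale and quantile normalized. The 52707 probe sets were fitted in limma 3.58.1 (R 4.3.3) with trend, and p-values were adjusted over all of them after Benjamini and Hochberg. The annotation gave 24956 probe sets a single symbol, 361 several and 27390 none. Of the probe sets with 1 symbol, the one with the highest mean stood for its gene, giving 14132 genes. Probe sets with a mean log2 signal under 7.43 (the 40th percentile) are called dim. The fit was tested on simulated data.

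Members, classes, pathway lists and marker lists were chosen with earlier results of these data known. The rule for named genes took SOD1, SOD2, SOD3, CAT, GPX1, GPX3, GPX4, PRDX1, PRDX6, TXN, TXNRD1, TXNIP, GCLC, GCLM, GSS, GSR, HMOX1, NQO1, GSTP1, MGST1 and every GSTA gene whatever their values, the 6 members with the smallest unadjusted p in each direction, and of each pathway list the gene with the smallest p in each direction. Other members are named so that all 43 are accounted for, after their values were seen. Alternatives were the signals as deposited, array medians, cyclic loess, signals floored at the 20th percentile, 16 added before the log, leaving out dim probe sets, no trend, array weights, the methods' t-test, the 3'/5' control ratio as a term in the fit, the mean over probe sets, and leaving out each array. No sequence of these genes was used.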

Additional observations from a re-analysis of the deposited data

How the results depend on the processing

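No member passed an adjusted p of 0.05 under any alternative run, and the number with a lower mean stayed between 31 (of 39, without dim probe sets) and 40. The median over the members moved to -0.96 with array medians subtracted, and ranged from -0.87 to -0.38 when each array was left out. Members at least 1.5-fold higher numbered 1 on the signals as deposited, 2 under cyclic loess, 1 with array weights and 0 to 4 with an array left out. Of all 14132 genes, 3384, 2652, 2945 and 2504 to 3432 were that much higher under the same settings. Members lower at an unadjusted p under 0.05 numbered 8 with array medians subtracted, 10 with array weights, 3 by the methods' t-test and 2 to 14 with an array left out. Of all genes, 6.05%, 7.15%, 2.89% and 1.32% to 10.1% were lower at that limit under the same settings. Members higher at that limit numbered 0 to 1 with an array left out, where 185 to 874 of all genes were. Members with every CET array below every VEH array numbered 10 to 20 with an array left out, where 9.37% to 20.7% of all genes did so. The cause of these moves was not tested. No paired analysis was possible because the labels number CET samples 1 to 3 and VEH samples 4 to 6 and do not say which share a monkey. The number of arrays limits every value, and dim probe sets (PRDX6, CAT, GLRX, GPX2) are limited by signal over background.

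The sign turned for 12 members, for NADK, DIO2 and HBB and for 5 list medians. DIO2 went from 2.74 to -0.12 as the mean over probe sets, and PRDX3, TXNDC17 and GPX2 had been at -0.80, -0.62 and -0.55. On the signals as deposited, the log2 fold change was -0.093 for GSTM3 and -0.022 for GSTO1, and the list median was 0.19 for oxidant producing enzymes, 0.0083 for macrophage and leukocyte markers and 0.11 for epithelial markers. With array medians subtracted it was -0.29 for GSTM3, -0.22 for GSTO1, -0.20 for GSTZ1, -0.19 for TXNDC9, -0.042 for TXNL4A and -0.023 for NADK. Under cyclic loess it was 0.0095 for SOD1, -0.0026 for NADK and 0.046 for HBB. With array weights it was -0.071 for GSTM3, -0.029 for TXNL4A, -0.047 for NADK and 0.20 for HBB. With the 3'/5' control ratio as a term in the fit it was -0.11 for GLRX5, -0.35 for GSTO1, 0.071 for TXNIP, -0.22 for TXNL4A and, as a list median, 0.072 for pericyte markers. As the mean over probe sets it was -0.15 for GSTZ1, 0.29 for TXNDC17, -0.40 for TXNDC9, -0.63 for TXNL4A and -0.087 for NADK. With an array left out it ranged from -1.28 to 0.24 for GPX2, -0.28 to 0.62 for GSTM3, -0.36 to 0.79 for GSTO1, -0.78 to 0.10 for GSTP1, -0.16 to 0.33 for GSTZ1, -1.30 to 0.011 for PRDX3, -0.28 to 0.028 for SOD1, -0.80 to 0.23 for TXNIP, -0.24 to 0.71 for TXNL4A, -0.18 to 0.26 for NADK and -0.34 to 0.45 for HBB. The list medians then ranged from -0.16 to 0.074 for oxidant producing enzymes, -0.64 to 0.079 for endothelial markers and -0.35 to 0.025 for macrophage and leukocyte markers.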
